A study of Mus musculus with 12 samples.

Results

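A set of 6 genes was followed through the estrous cycle of the mouse uterus: Nppc, Ptpn5 and Nrk, and the natriuretic peptide receptor genes Npr1, Npr2 and Npr3. They were 6 of the 35896 genes to which counts could be assigned. Nppc, Ptpn5 and Nrk were chosen by their fall in level from proestrus to estrus in these same libraries, so their levels are given as a description with no test. Npr1, Npr2 and Npr3 were picked for their role as receptors and were tested. The libraries came from 12 whole uteri of wild-type female Swiss Webster mice, an outbred stock, aged 8 to 12 weeks, with 3 uteri each in proestrus, estrus, metestrus and diestrus. The animals carried no transgene or treatment in the labels, and how each animal was staged is not given in the sources used here. Poly(A) RNA was read by 3' tag sequencing (TagSeq), which samples fragments near the 3' end of each transcript. Nothing in the labels beyond the count of uteri says how the replicates were housed or processed, so p-values measure only the spread between these samples.

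Nppc encodes C-type natriuretic peptide, which binds the receptor encoded by Npr2, a guanylyl cyclase that makes cyclic GMP inside the cell. Npr1 encodes the guanylyl cyclase receptor for the atrial and brain natriuretic peptides, and Npr3 encodes a receptor that lacks the cyclase domain, takes up all of these peptides for breakdown and can signal through inhibitory G proteins. Cyclic GMP acts through cyclic GMP-dependent protein kinases, among other targets, to relax smooth muscle, and is removed by phosphodiesterases. Ptpn5 encodes STEP, a tyrosine phosphatase that acts on MAP kinases and is best known from neurons. Nrk is an X-linked gene for Nik-related kinase, a kinase of the germinal centre kinase family that is best known from the placenta.

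The 12 libraries held 1652841 to 2200563 estimated counts each, so that 3 counts, taken here as the floor of detection, stood for 1.37 to 1.83 CPM. CPM is the count scaled to a common library total, here with TMM factors. Libraries of proestrus, estrus and diestrus correlated with their own stage at 0.945 to 0.955, as the mean Pearson correlation of log2 CPM over 12052 genes. Each of the 3 metestrus libraries correlated better with another stage than with its own. Replicate 5 correlated at 0.917 with estrus and 0.903 with metestrus, replicate 6 at 0.935 with diestrus, 0.931 with proestrus and 0.909 with metestrus, and replicate 7 at 0.918 with diestrus and 0.904 with metestrus. Replicate 6 was the metestrus library high in Nppc, Ptpn5 and Nrk, so metestrus results for these genes, the receptors and the counts of pathway genes are given with and without it. Markers of uterine muscle, epithelium and stroma were present in every stage, with 6 of 6 genes of each list above the floor in at least 1 library.

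Nppc, a gene on the minus strand of chromosome 1 (chr1:86666291-86670571, GRCm38), was high in all 3 proestrus uteri and low in 8 of the other 9. Its level was 136.5, 80.3 and 115 CPM in proestrus replicates 1, 2 and 3. It was 3.69, 1.70 and 1.37 CPM in estrus, 0.515, 24.4 and 4.14 CPM in metestrus replicates 5, 6 and 7, and 5.94, 2.45 and 0.562 CPM in diestrus. No value outside proestrus reached the lowest proestrus value, which was 3.28 times that of metestrus replicate 6, the highest of the others. Estrus replicates 4 and 5 held 3 counts each and metestrus replicate 5 and diestrus replicate 5 held 1 count each, at or under the floor. From summed counts, Nppc was 35.8 times higher in proestrus than in diestrus (620 against 18 counts, 95% exact binomial interval 22.5 to 60.8). The ratio of proestrus to metestrus was 12.3 (9.11 to 16.9), and 50.1 (25.3 to 116.5) when metestrus replicate 6 was left out. These intervals cover counting error only, and amplification copies were not separated from molecules. The fitted log2 difference, which takes in the spread between uteri, was 5.14 ± 0.71 (SE) for proestrus minus diestrus. In whole tissue, fewer cells of a type and less RNA per cell cannot be told apart.

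The sequence just upstream of the Nppc start site is shown because Nppc had the largest proestrus share of the genes tested. It covers the 250 bases before the RefSeq start site (chr1:86670574-86670823, GRCm38.p6, minus strand) and is written 5' to 3', ending at the base before the start site. Capitals mark TATAAA, the core of the TATA box, then ATTGG, which is a CCAAT box on the opposite strand, and a match to TGACNTCA, a form of the cyclic AMP response element (CRE-like).
Nppc: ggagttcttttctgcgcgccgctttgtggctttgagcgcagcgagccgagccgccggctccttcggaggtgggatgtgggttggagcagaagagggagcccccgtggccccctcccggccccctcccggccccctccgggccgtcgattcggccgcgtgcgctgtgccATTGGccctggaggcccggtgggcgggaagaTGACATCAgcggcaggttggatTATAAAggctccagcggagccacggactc
The TATA box lay at -29 to -24, the CRE-like match TGACATCA at -51 to -44 and the CCAAT box at -82 to -78 from the start site. A GC box (GGGCGG) lay between them at -62 to -57. Of 32851 mouse promoters of the same length in the RefSeq table, 12.37% held TATAAA, 33.85% held CCAAT, 32.74% held GGGCGG and 7.49% held TGACNTCA, each searched on both strands. Neither the palindromic estrogen response element (GGTCANNNTGACC, in 0.06% of promoters) nor its shorter core GGTCA (which lies within it and was in 35.24%) was in this window. The window was 69.2% G and C, against a median of 52.4% over all promoters. These matches describe the letters of the window and were not tested for function.

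Ptpn5 on chromosome 7 (chr7:47077795-47133684, minus strand) was also highest in the proestrus uteri. Its level was 77.0, 64.2 and 87.7 CPM in the 3 proestrus uteri and 2.27 to 2.46 CPM in the 3 estrus uteri. Metestrus uteri held 2.57, 50.8 and 5.92 CPM in replicates 5, 6 and 7, and diestrus uteri 11.4, 2.94 and 0.562 CPM. Metestrus replicate 6 therefore came close to the proestrus group, whose lowest value was 1.27 times its level, while the other 8 uteri stood far lower. The proestrus to diestrus ratio of summed counts was 14.9 (95% interval 10.3 to 22.3), and the fitted log2 difference was 3.89 ± 0.80 (SE). Against metestrus the ratio was 4.17 (3.33 to 5.25) with replicate 6 and 18.5 (11.1 to 33.4) without it. The authors' estimates divided the counts of Ptpn5 unevenly between a pair of protein-coding transcripts of nearly equal length, 3145 and 3137 bases. In proestrus replicate 1, 132 of 136 counts went to the longer one, and in metestrus replicate 6, 77 of 81 did. In proestrus replicates 2 and 3, 104 of 120 and 168 of 174 counts went to the shorter one. The sum over transcripts was used for every gene, and no change of transcript is read from this split.

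The RefSeq table lists Ptpn5 with 2 start sites, and the windows of 250 bases before them are shown for contrast with Nppc, since neither holds a TATA box, a CCAAT box or a CRE-like match, so that no letter is in capitals.
Ptpn5, site 1 (chr7:47133685-47133934, minus strand): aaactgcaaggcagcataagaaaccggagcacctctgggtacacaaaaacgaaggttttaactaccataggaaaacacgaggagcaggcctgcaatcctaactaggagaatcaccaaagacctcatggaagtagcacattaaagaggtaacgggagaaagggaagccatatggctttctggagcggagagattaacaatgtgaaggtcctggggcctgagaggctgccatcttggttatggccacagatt
Ptpn5, site 2 (chr7:47132599-47132848, minus strand): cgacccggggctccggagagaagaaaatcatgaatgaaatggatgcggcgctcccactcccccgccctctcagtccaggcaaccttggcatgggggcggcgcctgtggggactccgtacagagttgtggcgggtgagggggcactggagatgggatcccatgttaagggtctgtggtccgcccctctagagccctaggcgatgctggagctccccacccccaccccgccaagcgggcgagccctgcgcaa
The windows differed in base composition, at 48% and 66% G and C. Site 2 held 3 GC boxes and site 1 held none of the 7 motifs searched, which also included the AP-1 sequence TGANTCA, present in 6.75% of all promoters.

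Nrk on the X chromosome (chrX:138914430-139010532, plus strand) showed the same order of stages at lower levels. Proestrus uteri held 41.9, 25.2 and 40.3 CPM and estrus uteri 1.23, 1.14 and 0.910 CPM, or 2 counts in each estrus library, under the floor. Metestrus uteri held 1.55, 18.8 and 1.18 CPM in replicates 5, 6 and 7, and diestrus uteri 4.45, 4.42 and 1.12 CPM. As for Ptpn5, the proestrus values did not overlap the others, and the lowest of them was 1.34 times that of metestrus replicate 6. The proestrus to diestrus ratio of summed counts was 10.4 (95% interval 6.58 to 17.5), with a fitted log2 difference of 3.37 ± 0.69 (SE). Against metestrus it was 5.34 (3.72 to 7.88) with replicate 6 and 26.0 (10.95 to 80.9) without it. Part of the last 500 bases of the main Nrk transcript is repeated in other genes: 26 of its 470 runs of 31 bases (5.53%) occur in other genes on the same strand. Reads there could have been assigned to either, so low Nrk counts are less certain than those of Nppc, which shared no such run. The longer of the pair of Ptpn5 transcripts shared none either, and the shorter one was not checked. Among the 35896 genes to which counts could be assigned, none overlapped any of the 6 genes. Annotated genes outside that set were not searched.
Nrk: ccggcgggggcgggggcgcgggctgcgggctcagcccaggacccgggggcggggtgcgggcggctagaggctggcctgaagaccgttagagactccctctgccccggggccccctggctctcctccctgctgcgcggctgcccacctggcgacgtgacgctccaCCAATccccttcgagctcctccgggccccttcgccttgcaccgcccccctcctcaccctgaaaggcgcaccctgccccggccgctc
This window (chrX:138914180-138914429, plus strand) precedes the Nrk start site and is shown because it had the highest share of G and C among the 6 genes, 76.4%. The capitals mark a CCAAT box at -86 to -82, and 4 GC boxes lay at other positions. It held no TATA box, CRE-like match or estrogen response element core.

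The proestrus share, the mean proestrus CPM as a percentage of the sum of the 4 stage means, puts the 3 genes on one scale. It was 88.1% for Nppc, 75.5% for Nrk and 73.8% for Ptpn5, against a median of 24.7% over the 12052 genes tested. The SD of the share, over proestrus replicates, was 3.01, 5.52 and 3.05 percentage points. Nppc ranked 1, Nrk 3 and Ptpn5 6 among all genes tested, which describes the choice of these genes and is not evidence for it. Without metestrus replicate 6 the shares were 93.6%, 86.1% and 86.9%. In all 3 genes, diestrus replicate 3 was the highest sample outside proestrus other than metestrus replicate 6. The plot of levels by uterus shows both points.

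**Figure D1:**
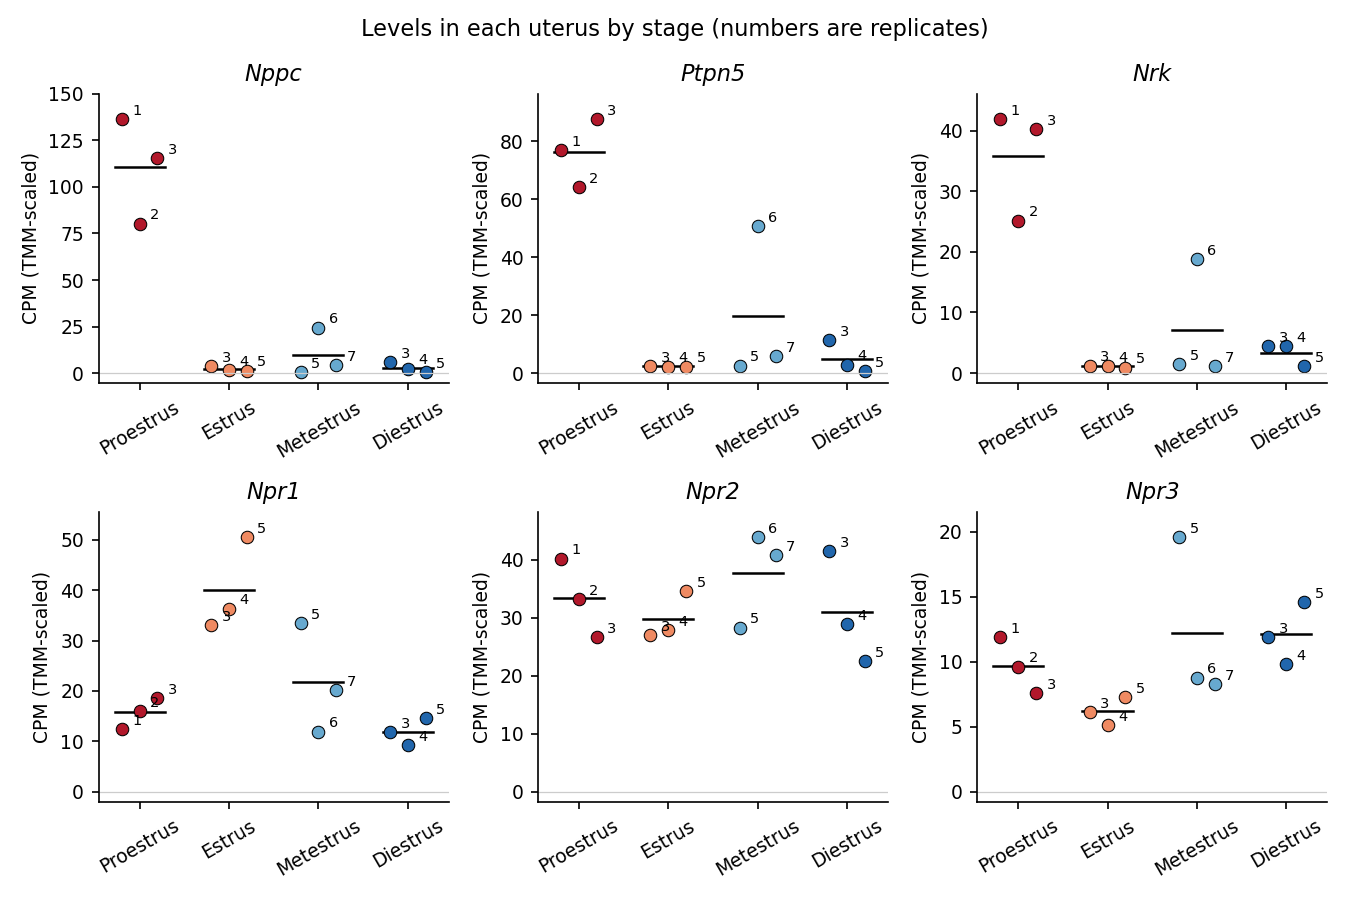
Level of each gene in each uterus, in TMM-scaled CPM on linear axes, with 1 point per uterus (3 per stage, replicate number beside it) and a black line at the stage mean. Nppc, Ptpn5 and Nrk are highest in the 3 proestrus uteri with metestrus replicate 6 next, Npr1 is highest in estrus at 33.2 to 50.5 CPM, and the Npr2 stages overlap.

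Nppc, Ptpn5 and Nrk also varied together, which is given as a description. Over the 12 uteri the Pearson correlation of log2 CPM was 0.97 for Nppc with Ptpn5, 0.96 for Nppc with Nrk and 0.96 for Ptpn5 with Nrk. The contrast of proestrus with the other stages carries much of this by the choice of the genes. Over the 9 uteri outside proestrus the values were 0.94, 0.84 and 0.88. Over the 8 left without metestrus replicate 6 they were 0.82, 0.47 and 0.57, where most Nppc and Nrk values were within a few counts of the floor.

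Genes with similar levels were taken from the 5 with the highest Pearson correlation of log2 CPM over the 12 uteri. For Nppc these included Dct, which encodes dopachrome tautomerase (r = 0.98, Spearman's rho = 0.90), Raly, an RNA-binding protein gene (0.98 and 0.94), Ptpn5, and Umps, of pyrimidine synthesis (0.96 and 0.80). For Ptpn5 they included Qpct, the glutaminyl cyclase gene (0.97 and 0.91), Nppc, Atp8a1, a phospholipid flippase gene (0.96 and 0.92), and P2ry14, a receptor gene for UDP-sugars (0.96 and 0.76). For Nrk they included Ptpn5, Nppc, Dct and Plod2, a collagen lysyl hydroxylase gene (0.95 and 0.78). Outside proestrus the stage means of Dct, Raly, Umps, Qpct, Atp8a1, P2ry14 and Plod2 were well above the floor. Dct was at 41.0 ± 5.85 CPM in proestrus and 14.5 ± 3.31 CPM in estrus (SD, n = 3). P2ry14 had the highest proestrus mean of the set, 202 ± 41.2 CPM, with 28.6 ± 4.87 CPM in estrus. Metestrus replicate 6 was high here too, with 187 CPM of P2ry14 against a diestrus mean of 35.5 CPM, and 108 CPM of Atp8a1 against 34.8 CPM. Raly overlaps another gene on the same strand. Its main transcript shared 6.87% of its runs of 31 bases with that gene but 0% in its last 500 bases. Only Raly counts from further upstream could therefore belong to that gene's transcripts. P2ry14 lies within the span of Med12l on the opposite strand, but its main transcript shared 0% of its runs with other genes on either strand.

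**Figure D2:**
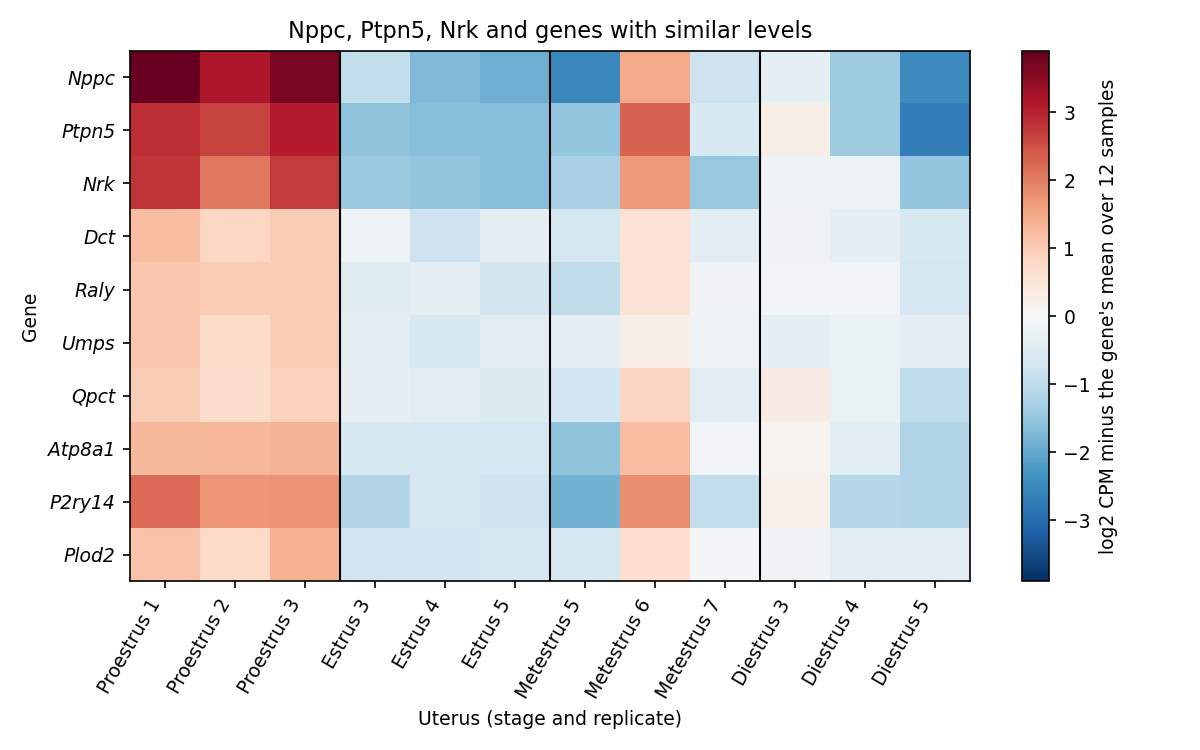
Heat map of log2 CPM minus each gene's mean over the 12 uteri (red above, blue below), with genes in rows and uteri in columns ordered by stage. All 10 genes are red in the 3 proestrus columns, and metestrus replicate 6 is above the mean for all 10 as well, from 0.26 for Umps to 2.29 for Ptpn5.

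Several tissue marker lists differed between stages or were high in metestrus replicate 6, and their part in the levels was not tested. The summed markers of uterine epithelium and glands were 1125 to 1478 CPM in proestrus and 1116 to 1405 in estrus. They were lower in metestrus, at 459 to 923 CPM (715 in replicate 6), and in diestrus, at 466 to 642 CPM. Foxa2 of this list went the other way, with higher values in diestrus than in proestrus. The summed level of 6 uterine stroma markers was 3944 to 4033 CPM in proestrus, 2596 to 2718 in estrus, 1639 to 4211 in metestrus (highest in replicate 6) and 3040 to 4155 in diestrus. Collagen gene Col1a1 carried this sum, at 3121 to 3314 CPM in proestrus and 1443 to 1599 in estrus. Other markers of the list went the other way: Vim was at 442 to 530 CPM in proestrus and 704 to 872 in estrus, and Pdgfra at 39.8 to 54.9 and 126 to 147, while Hoxa10 and Hoxa11 were higher in diestrus than in proestrus. The list as a whole thus did not follow Nppc, Ptpn5 and Nrk. The mesothelium list was higher in proestrus than in every other library, at 468 to 724 CPM against 276 to 421 in estrus, 190 to 224.5 in metestrus (lowest in replicate 6) and 104.5 to 174 in diestrus. Krt7, a keratin gene that epithelium also expresses, made up 402 to 659 CPM of it in proestrus. It alone of the list was higher in each proestrus uterus than in every other library. Wt1 was at 35.7 to 44.3 CPM in proestrus, lower in estrus (18.7 to 28.3) and higher in diestrus (54.5 to 62.9). Upk3b was higher in estrus (27.0 to 35.8 CPM) than in proestrus (19.3 to 24.2). The oviduct list stood at 175.5 to 204.5 CPM in proestrus, 141 to 152 in estrus, 107 to 352 in metestrus (highest in replicate 6) and 170 to 276.5 in diestrus, with Tppp3 at 270 CPM in replicate 6 and Foxj1, a defining gene of ciliated cells, at 2.02 CPM or less in every library. Of 10 ovary markers, a tissue that expresses Nppc and could be left on a uterus, 4 were above the floor in at least 1 library (Foxl2, Star, Inha and Lhcgr). Fshr and Zp3 were at 0 in all 12 libraries, and Amh was at 0 in all but estrus replicate 5. The summed ovary list stood at 54.4 to 74.9 CPM in proestrus, 26.8 to 39.2 in estrus, 43.2 to 76.5 in metestrus and 42.2 to 46.1 in diestrus, most of it Foxl2, and replicate 6 was the highest metestrus uterus. Nerve and glia markers, which bear on Ptpn5 as a gene known from neurons, were 29.5 to 33.7 CPM in proestrus and 28.0 to 46.9 CPM across the other stages. Red blood cell markers were 208 to 1047 CPM in proestrus and 1422 CPM in metestrus replicate 6, the highest of all libraries.

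Of the receptors, Npr1 changed over the cycle and was highest in estrus, while no stage difference passed the test for Npr2 or Npr3. By edgeR's quasi-likelihood F test over the 4 stages, 1 of the 3 receptors passed at an adjusted p under 0.05, where 23.2% of all 12052 genes did. Npr1 passed with an adjusted p of 0.00556 (F = 11.8). The adjusted p was 0.690 for Npr2 and 0.184 for Npr3. Without metestrus replicate 6 the adjusted p was 0.00149 for Npr1, 0.879 for Npr2 and 0.118 for Npr3.

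Npr1 (chr3:90450591-90465866, minus strand) stood at 12.5, 16.1 and 18.6 CPM in the proestrus uteri and at 33.2, 36.3 and 50.5 CPM in the estrus uteri. It was at 33.5, 11.9 and 20.1 CPM in metestrus replicates 5, 6 and 7, and at 11.9, 9.32 and 14.6 CPM in the diestrus uteri. The authors' estimates put 20.0% of Npr1 counts on a retained-intron transcript of 949 bases. That part was 11.7 of 24 counts in diestrus replicate 3 and 2.86 of 34 in metestrus replicate 7. All 3 estrus uteri lay above every proestrus and every diestrus uterus, whereas metestrus reached from the diestrus range up to the estrus range. The share of all genes whose stages separate like this was not counted. Npr1 rose from proestrus to estrus by 1.35 ± 0.32 on the log2 scale (SE, adjusted p = 0.0113 by edgeR), a comparison in which 17.1% of genes were called. This call was lost without proestrus replicate 1 (log2 difference 1.21, adjusted p = 0.0519 by edgeR) and without estrus replicate 5 (1.13, adjusted p = 0.0615). Npr1 was lower in diestrus than in estrus by a log2 difference of -1.76 ± 0.33 (adjusted p = 0.00199 by edgeR), where 22.8% of genes were called, and all 3 diestrus uteri lay below the estrus uteri. The log2 difference of metestrus minus estrus was -0.86 ± 0.31 (adjusted p = 0.102 by edgeR, with 7.55% of genes called) and that of diestrus minus metestrus -0.89 ± 0.34 (adjusted p = 0.330, with 0.224% called). Single metestrus uteri moved these values. Metestrus minus estrus was -1.32 without replicate 5, where it passed (adjusted p = 0.0118 by edgeR), and -0.55 without replicate 6 (adjusted p = 0.297). Diestrus minus metestrus was -1.18 without replicate 6 (adjusted p = 0.0726 by edgeR). Proestrus and diestrus, the lowest stages, did not differ beyond their spread, with a log2 difference of 0.41 (95% interval -0.35 to 1.16, adjusted p = 0.561 by edgeR, with 8.51% of genes called). Metestrus minus proestrus was 0.49 (-0.223 to 1.196), where 4.31% of genes were called, and 0.78 without metestrus replicate 6 (adjusted p = 0.121 by edgeR).

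The Npr1 window is shown because Npr1 was the receptor whose level changed, and its capitals mark a CCAAT box in the opposite orientation.
Npr1 (chr3:90465867-90466116, GRCm38.p6, minus strand): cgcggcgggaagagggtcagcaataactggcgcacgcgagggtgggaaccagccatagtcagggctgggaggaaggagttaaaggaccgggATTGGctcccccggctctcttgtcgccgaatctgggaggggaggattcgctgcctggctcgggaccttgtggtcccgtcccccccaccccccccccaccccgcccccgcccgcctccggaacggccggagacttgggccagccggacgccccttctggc
The CCAAT box lay at -159 to -155 and 2 GC boxes at -60 to -55 and -54 to -49. A single GGTCA lay at -236 to -232, where the window holds no palindromic estrogen response element, no TATA box and no CRE-like match.

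Npr2 (chr4:43631935-43651244, plus strand), the receptor for the peptide that Nppc encodes, was measured at 40.2, 33.2 and 26.7 CPM in the proestrus uteri and 27.0, 27.8 and 34.6 CPM in the estrus uteri. Metestrus uteri held 28.3, 43.9 and 40.9 CPM and diestrus uteri 41.6, 29.0 and 22.5 CPM. The authors' estimates put 94.2% of Npr2 counts on a protein-coding transcript of 2106 bases and 1.66% on one of 3480 bases. These levels are of the gene and not of a given transcript. Every pair of stages overlapped. None of the 6 contrasts between stages passed, with adjusted p-values by edgeR of 0.457 and above. The intervals of the log2 differences reached from -0.79 to 0.85 at the widest, so that larger differences lay outside the 95% intervals and smaller ones could not be seen. For proestrus minus diestrus the log2 difference of Npr2 was 0.10 (-0.43 to 0.62), beside 5.14 for Nppc. Without metestrus replicate 6, the log2 differences of metestrus from estrus and proestrus were 0.23 and 0.05, and diestrus minus metestrus was -0.15.

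Npr3 (chr15:11839896-11907287, minus strand), the clearance receptor gene, had the lowest counts of the receptors, 35 in all in estrus and 54 in proestrus. Its level was 11.9, 9.63 and 7.56 CPM in the proestrus uteri and 6.14, 5.11 and 7.28 CPM in the estrus uteri. Metestrus uteri held 19.6, 8.77 and 8.29 CPM and diestrus uteri 11.9, 9.82 and 14.6 CPM. No contrast passed. The 3 estrus uteri lay below every other uterus, but estrus replicate 5 (7.28 CPM, 16 counts) was close to proestrus replicate 3 (7.56 CPM, 15 counts). How many of all genes separate in this way was not counted. Estrus minus proestrus was -0.63 on the log2 scale (95% interval -1.46 to 0.20, adjusted p = 0.298 by edgeR). Diestrus minus estrus was 0.95 (0.14 to 1.76, adjusted p = 0.0864), and it passed when only the 6 uteri of these stages were fitted (adjusted p = 0.0455 by edgeR) or without metestrus replicate 5 (adjusted p = 0.0392). Metestrus minus estrus was 0.98 (0.17 to 1.80, adjusted p = 0.130), and 1.195 without metestrus replicate 6 (adjusted p = 0.114 by edgeR).

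**Figure D3:**
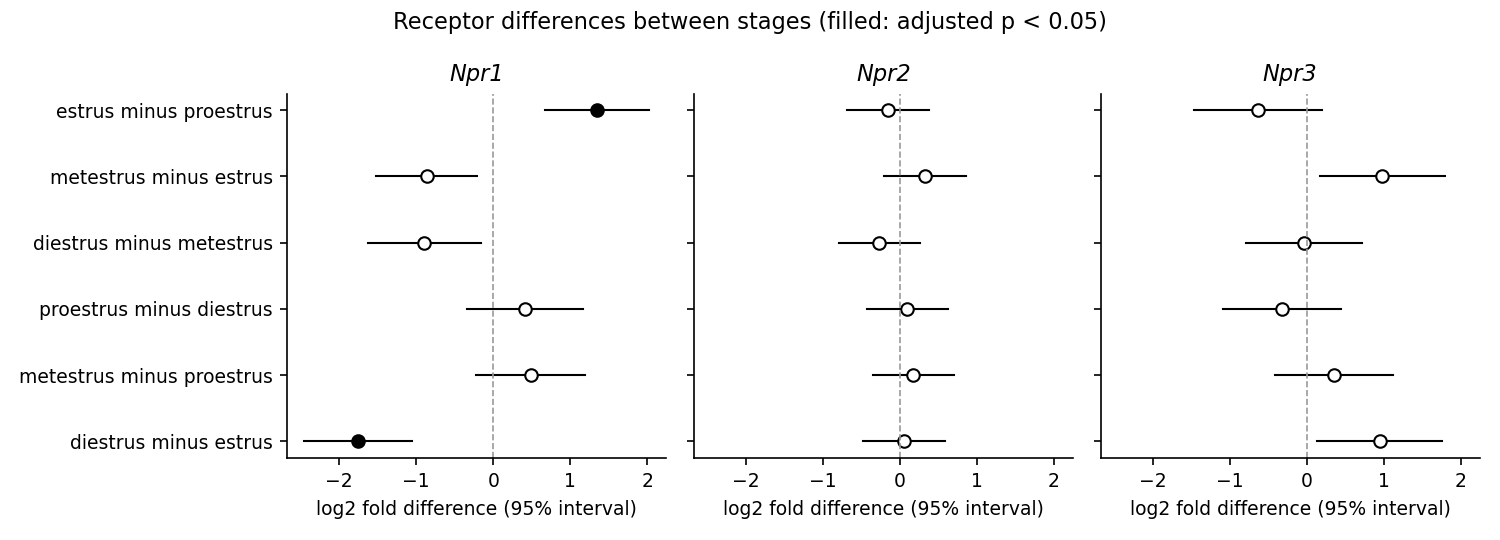
Fitted log2 differences of Npr1, Npr2 and Npr3 for the 6 contrasts between stages, as points with 95% intervals, filled where the adjusted p was under 0.05. Npr1 has the only 2 filled points, estrus minus proestrus at 1.35 and diestrus minus estrus at -1.76, and every Npr2 interval includes 0.

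Levels of different genes were set side by side on the authors' TPM values, which divide by transcript length before scaling to a common total, although 3' tags do not grow in number with length. The TPM of Npr1 and Npr2 also depends on how their counts were divided between transcripts of unlike length. In proestrus the order of mean TPM was Nppc (136 ± 34.1), Ptpn5 (28.4 ± 4.74), Npr2 (17.4 ± 3.38), Npr1 (8.22 ± 2.72), Nrk (4.53 ± 1.05) and Npr3 (1.43 ± 0.271), each as mean ± SD of 3 uteri. No neighbours in this order overlapped, although the lowest Npr1 value (5.30) and the highest Nrk value (5.14) were close. In estrus the order was Npr1 (19.2 ± 3.37), Npr2 (15.7 ± 1.87), Nppc (2.76 ± 1.57), Npr3 (1.08 ± 0.147), Ptpn5 (0.824 ± 0.054) and Nrk (0.227 ± 0.109). Npr1 and Npr2 overlapped there, with single uteri at 15.3 to 21.3 and 14.6 to 17.8 TPM. On CPM, which does not divide by length, the proestrus order was Nppc, Ptpn5, Nrk, Npr2, Npr1 and Npr3, where Nrk (25.2 to 41.9) and Npr2 (26.7 to 40.2) overlapped. In estrus it was Npr1, Npr2, Npr3, Ptpn5, Nppc and Nrk. On both scales the ligand gene was above all 3 receptors in proestrus and below Npr1 and Npr2 in estrus. Its place against Npr3 in estrus turned with the scale (2.25 against 6.18 CPM).

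The other ligand genes of the receptors were nearly unread in these libraries. Nppb, the brain natriuretic peptide gene, had 0 counts in all 12, Nppa, the atrial peptide gene, at most 4 counts in any library, and Ostn, which encodes the NPR3 ligand osteocrin, at most 2. Corin, whose product cleaves the atrial peptide precursor, had at most 1 count. At this depth a level under the floor of 1.37 to 1.83 CPM cannot be told from 0.

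The genes around these 6, 82 in 9 lists of natriuretic peptide, cyclic GMP, STEP and germinal centre kinase pathways, included 61 that could be tested. Over the 4 stages 14 of the 61 passed (23%), close to the 23.2% of all genes. Between proestrus and estrus 9 of the 61 rose (14.8%, against 9.68% of all genes) and 0 fell (against 7.45% of all genes). At an unadjusted p under 0.05 by edgeR, 0 were lower in estrus and 18 higher. The share of all genes at that threshold was not counted, so these counts have no background to be read against. With adjusted p, DESeq2 and limma-voom also called 0 lower. A fit of only the 6 uteri of these stages called 1 lower. The count of 9 was 4 without proestrus replicate 3 and 5 without proestrus replicate 1, estrus replicate 4 or estrus replicate 5. Between proestrus and diestrus 7 were lower in proestrus (11.5%, against 3.9% of all genes) and 1 was higher (1.64%, against 4.61%). Jun passed only in the first of these contrasts and Ppp1r12a only in the second, and neither passed over the 4 stages. The count of 7 was 2 without proestrus replicate 1, proestrus replicate 2 or diestrus replicate 4, and 3 without proestrus replicate 3 or diestrus replicate 5. Without metestrus replicate 6 the counts were 15 over the stages, 10 higher in estrus and 7 lower in proestrus than in diestrus. The median log2 difference of the 61 genes was 0.17 for estrus minus proestrus, against 0.02 over all genes, and -0.15 for proestrus minus diestrus, against 0.

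On the breakdown side of the pathway, 3 of 8 phosphodiesterase genes that bind or split cyclic GMP changed over the stages. Pde5a, the cyclic GMP-specific enzyme of smooth muscle, was lowest in proestrus at 51.5 ± 3.67 CPM (SD, n = 3) and stood at 220 ± 48.3 in estrus, 176 ± 77.4 in metestrus (216 without replicate 6) and 103 ± 9.97 in diestrus. It rose from proestrus to estrus by 2.10 ± 0.27 on the log2 scale (adjusted p = 0.000465 by edgeR). A pseudogene lies opposite part of Pde5a. Pde3a, whose enzyme cyclic GMP inhibits, rose from 24.7 ± 5.89 to 42.6 ± 5.56 CPM between the same stages. Pde1a, a calmodulin-dependent enzyme gene, was highest in diestrus at 27.1 ± 12.3 CPM, against 10.4 ± 1.96 CPM in proestrus. Mme encodes neprilysin, a peptidase that degrades natriuretic peptides, and was the only 1 of 4 tested genes of peptides and their processing that changed. It was lowest in proestrus, at 15.1 ± 3.02 CPM, with 35.7 ± 7.77 in estrus, 48.7 ± 14.2 in metestrus (56.5 without replicate 6) and 134 ± 17.6 in diestrus. Its log2 difference of proestrus minus diestrus was -3.15 ± 0.24 (adjusted p = 2.79e-05 by edgeR). Mme and Pde5a thus had their lowest stage mean where Nppc had its highest. This was not particular to them, since Pde3a, Prkg1, Rgs2, Gucy1a1, Gnai1 and Ptk2b of the changed genes were also lowest in proestrus.

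On the response side, 4 of 10 genes of cyclic GMP-dependent kinases and their targets changed. Prkg1, the kinase gene of smooth muscle, was at 11.9 ± 1.17 CPM in proestrus and 24.3 ± 5.82 CPM in estrus, and Rgs2, a regulator of G protein signalling that this kinase activates, at 121 ± 21.2 and 505 ± 67.3 CPM. Prkg1 has Cstf2t on its opposite strand. Rgs2 rose by 2.06 ± 0.42 on the log2 scale (adjusted p = 0.00506 by edgeR). Kcnmb1, a potassium channel subunit gene of smooth muscle, was highest in estrus at 98.1 ± 15.5 CPM, though it overlaps Kcnip1 on the opposite strand. Vasp, a kinase substrate of the actin cytoskeleton, was at 95.6 ± 5.10 CPM in proestrus, 90.6 ± 12.8 in estrus and 64.2 ± 6.26 in metestrus. Its proestrus level was not called different from estrus or diestrus (adjusted p = 0.727 and 0.109 by edgeR). The summed smooth muscle markers were 6159 to 8707 CPM in proestrus and 8170 to 10510 CPM in estrus, and their part in these differences was not tested. Of 4 tested genes of soluble guanylyl cyclase and nitric oxide synthases, Gucy1a1, a cyclase subunit gene, changed, with its highest mean in metestrus (39.3 ± 9.09 CPM against 20.9 ± 4.37 in proestrus). Gnai1, an inhibitory G protein gene, was the 1 of 5 that changed in its list, at 11.4 ± 2.42 CPM in proestrus and 31.3 ± 8.19 CPM in diestrus. The only tested gene of the other membrane cyclases and guanylins did not pass.

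Around Ptpn5, 2 of 9 genes of MAP kinase phosphatases and STEP relatives changed. Dusp6, an ERK phosphatase gene, was at 33.4 ± 2.97 CPM in proestrus and 36.3 ± 2.44 in estrus against 15.3 ± 2.54 in metestrus and 13.2 ± 1.93 in diestrus, and was the 1 gene of the lists called higher in proestrus than in diestrus (log2 difference 1.34 ± 0.19, adjusted p = 0.00091 by edgeR). Dusp16, a JNK phosphatase gene, peaked in estrus at 31.04 ± 1.351 CPM. Of 7 STEP substrate genes, Ptk2b, a focal adhesion kinase relative, changed, with 17.2 ± 3.40 CPM in proestrus and 35.6 ± 2.57 CPM in diestrus. Around Nrk, 1 of 13 genes of the germinal centre kinase family and the JNK route changed, Map3k1, which was highest in estrus at 65.4 ± 7.32 CPM against 43.4 ± 5.78 CPM in proestrus. The lowest log2 difference of estrus minus proestrus among the 14 genes was -0.32, for Pde1a. Nppc, Ptpn5 and Nrk were chosen by their fall between these stages, so no contrast with them is drawn from this.

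**Figure D4:**
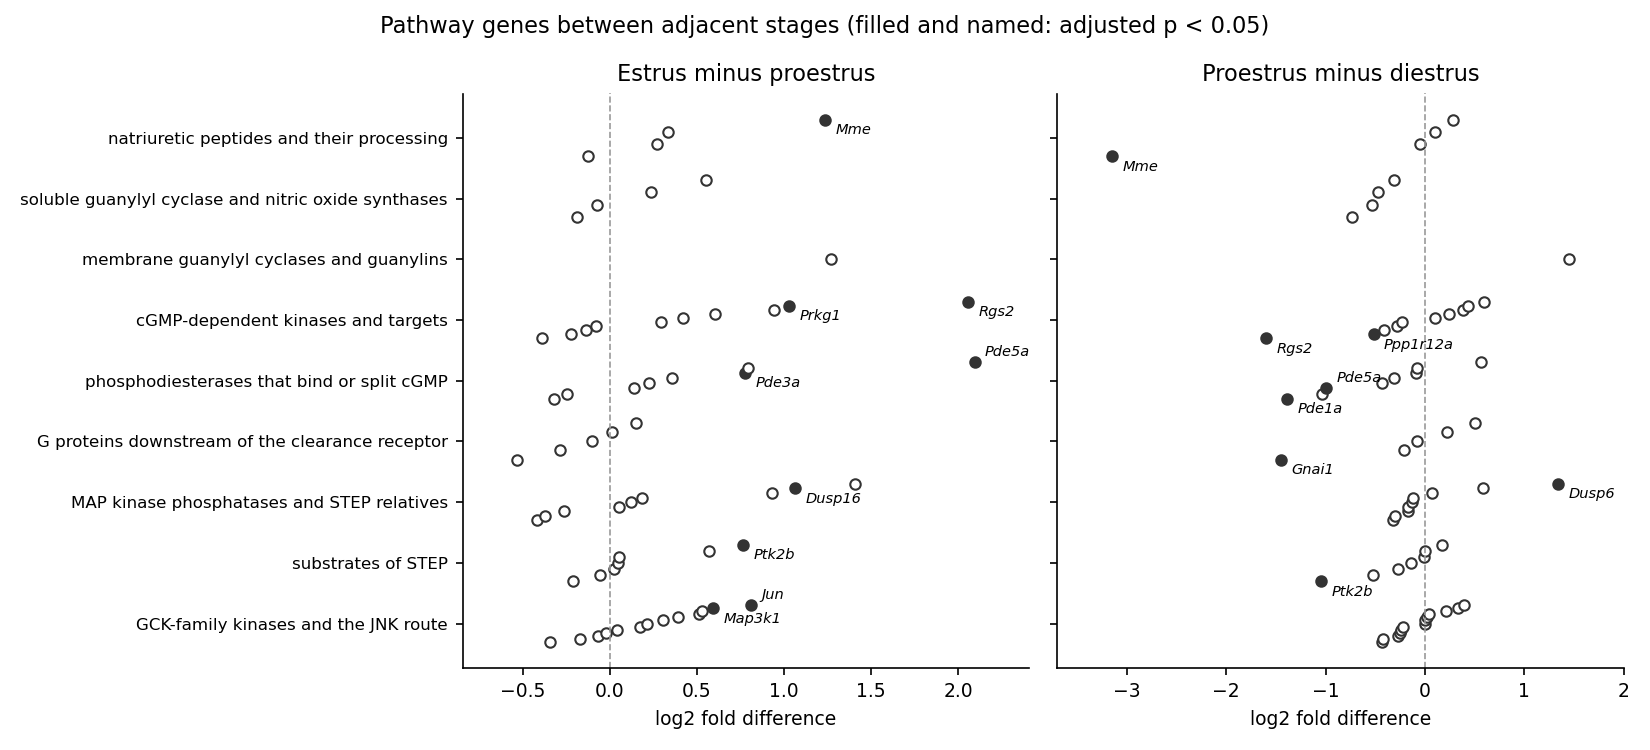
Fitted log2 differences of the 61 tested pathway genes, 1 point per gene and 1 row per list, for estrus minus proestrus (left) and proestrus minus diestrus (right), filled and named where the adjusted p was under 0.05. All 9 filled genes on the left lie above 0, and on the right 7 lie below 0 with Dusp6 at 1.34.

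The genes most similar to the receptors differed from those of Nppc. For Npr1 they were Chd7, a chromatin remodeller gene (r = 0.98), Cxcl16, a chemokine gene (0.96), Prap1, a secreted protein gene of the epithelium (0.96), Ranbp9, a scaffold protein gene (0.96), and Ctsb, which encodes cathepsin B (0.95). Prap1 had the widest range of these, 80.2 ± 57.3 CPM in proestrus and 3919 ± 1073 CPM in estrus (SD, n = 3). Part of the Ctsb, Ranbp9 and Prap1 transcripts lies opposite another gene (Fdft1, Nol7 and Fuom), over 100%, 33.4% and 28.1% of the runs of 31 bases in their last 500 bases, so their counts are uncertain if strand was not used. For Npr2 the highest correlations were lower, 0.85 with Rprd1a and 0.84 with Ksr1, followed by Rps16-ps2, Dtwd1 and Apba3. For Npr3 they were 0.92 with Nelfa and 0.90 with Nf2, followed by Dynll2, 9130401M01Rik and Exosc1. Counts of Rps16-ps2 and 9130401M01Rik are uncertain as well. On the same strand, 100% of the runs of 31 bases of Rps16-ps2 occur in Rps16 or its pseudogenes. For 9130401M01Rik, 49.3% occur in Gm29394, and 7.02% in its last 500 bases. Npr1 itself correlated at -0.43 with Nppc, -0.45 with Ptpn5 and -0.56 with Nrk over the 12 uteri.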

How the data were processed

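The authors deposited 1 table per library with estimated counts, TPM and effective length for each transcript, per the file headers. The submitters' processing notes name FastQC, kallisto and DESeq2. Options, strand, transcript set and build are not given in the sources used here, and no molecular identifiers are described. Of 119414 transcripts, 116640 (97.7%) matched GENCODE M21 (GRCm38) identifiers after version numbers were removed, and the unmatched ones held 0.619% to 0.774% of counts. Estimated counts were summed per gene and rounded. Such counts depend on how reads shared by transcripts were divided.

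Counts were tested with edgeR 4.0.16 in R 4.3.3: filterByExpr by stage left 12052 genes, with TMM factors of 0.907 to 1.05, glmQLFit on all 12 libraries with stage as the only term, glmQLFTest and Benjamini-Hochberg adjustment over all genes tested at 0.05. All 6 genes of interest passed the filter on low counts, and Nppc, Ptpn5 and Nrk could pass through proestrus alone. Log2 CPM used a prior count of 2. Alternatives were DESeq2 1.42.0, limma-voom (limma 3.58.1), library totals, counts scaled from TPM, other filters, the stages compared fitted alone, a replicate block and leaving out each library. Promoter sequences came from RefSeq (GRCm38.p6), which held all 6 genes.

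Named genes were the 6, the pathway genes past the F test (at most 15), untested list genes by count, and for each of the 6 the 5 tested genes with the highest correlation. The genes and lists were chosen with earlier results of these data known. A gene that this rule chose is not reported here.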

Additional observations from a re-analysis of the deposited data

How the results depend on the processing

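No called receptor contrast changed direction under any alternative run. For pathway genes only counts by direction were kept, so the direction of each single gene was not compared between runs. The sign of 4 receptor contrasts, called in no fit here, did change. Npr3 diestrus minus metestrus, -0.037, was 0.029 with library totals and 0.023 with limma-voom. With single libraries left out it ran from -0.258 to 0.499, Npr3 metestrus minus proestrus (0.356) from -0.181 to 0.581, Npr2 proestrus minus diestrus (0.097) from -0.083 to 0.367 and Npr2 diestrus minus estrus (0.055) from -0.212 to 0.237. Metestrus replicate 5 turned both Npr3 contrasts, diestrus replicate 4 the first, and proestrus replicate 1, diestrus replicates 3 and 5 and estrus replicate 3 the Npr2 contrasts. The count of genes that differed over the 4 stages, 2793, was 1676 with counts scaled from TPM, 1844 with a mean of at least 50 counts (where fewer genes were tested) and 1909 to 3428 with single libraries left out. The pathway count of 14 was 9 with at least 50 counts and 10 to 17 with single libraries left out. Of 18 receptor contrasts, 2 were called. With at least 50 counts there were 0, because Npr1 and Npr3 fell under that filter by construction and Npr2 was not called before or after, and with single libraries left out there were 1 to 4. The proestrus share ran from 85.0% to 93.6% for Nppc, 68.2% to 86.9% for Ptpn5 and 71.0% to 86.1% for Nrk with single libraries left out, highest in each without metestrus replicate 6. The adjusted p of Npr1 over the stages stayed between 8.17e-05 and 0.0399, that of Npr2 between 0.367 and 0.879 and that of Npr3 between 0.101 and 0.369. Counts of pathway genes by direction under the alternatives were added after seeing the data. With counts scaled from TPM, 4 genes were higher in estrus than in proestrus and 3 lower in proestrus than in diestrus, and for the latter there were 4 with limma-voom and 4 with at least 50 counts. Estrus and diestrus share replicate numbers 3, 4 and 5, but same-numbered libraries did not deviate together (correlations -0.043, 0.013 and -0.017). With the replicate number as a block, diestrus minus estrus was -1.73 for Npr1 (adjusted p = 0.000316 by edgeR), 0.04 for Npr2 and 0.97 for Npr3 on the log2 scale. For Npr3 the adjusted p was 0.0648 with the block and 0.0455 without it on the same 6 uteri, so that its call there was lost, and Npr1 was called and Npr2 not called in both. At this depth levels under about 1.37 to 1.83 CPM rest on 3 counts or fewer, which limits Nppc and Nrk outside proestrus and the ratios drawn from them.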
